A study of Mus musculus with 8 samples.

Results

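The genes described here are the D-type cyclins Ccnd1, Ccnd2 and Ccnd3, their kinase partners Cdk4 and Cdk6, and the inhibitors Cdkn1b, Cdkn2c, Cdkn2d and Cdkn2a, which together set whether a cell leaves G1 and copies its DNA. They were chosen by name as a family, 9 genes of the 23420 gene symbols in the count tables, and all 9 were listed. Of these, 8 had enough counts to stand among the 11409 genes tested, and Cdkn2a had not. Values were RNA-seq read counts from thymocytes of wild-type mice of 2 strains, named BALB and B6 in the labels, which give no substrain, age or sex. In each strain, whole thymocytes and sorted DP thymocytes were sequenced, with 2 libraries for each of the 4 groups BALB whole, BALB DP, B6 whole and B6 DP, 8 in all. DP cells carry CD4 and CD8, and the sort took those without the activation marker CD69 and with low or medium staining by the T cell receptor beta antibody H57. Whether replicates came from separate mice is not stated, so p-values measure the spread between these libraries, which may be technical. The BALB whole replicates differed in sex-linked genes, as given below, so they cannot both come from the same single mouse.

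D cyclins are made in answer to growth signals and activate Cdk4 and Cdk6, which phosphorylate the retinoblastoma proteins and so release E2F factors. INK4 proteins, among them p18 from Cdkn2c and p19 from Cdkn2d, bind Cdk4 and Cdk6 themselves, whereas p27 from Cdkn1b binds cyclin and kinase complexes and also restrains the cyclin E step. In the mouse thymus, DN precursors proliferate after signals from the pre-T cell receptor and Notch, which need Ccnd3 in particular. The resulting DP cells then stop dividing while they rearrange the receptor alpha chain, and p27 and p18 are known restraints on thymocyte number.

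The libraries held 2632083 to 5974684 counts in genes. The 14 DP thymocyte marker genes, Rag1, Cd4 and Cd8a among them, summed to 11800 and 11024 CPM (counts relative to the scaled library size) in BALB whole and 16256 and 16213 CPM in BALB DP thymocytes. The same sum was 14569 and 15146 CPM in B6 whole and 24522 and 23512 CPM in B6 DP thymocytes, so the sorted stage carried its markers. BALB whole replicate 1 stood apart in the sex-linked genes, with Xist at 2974 CPM and Ddx3y, on the Y chromosome, at 0 counts. BALB whole replicate 2 had Xist at 50.7 CPM beside Ddx3y at 181 CPM. In the BALB DP, B6 whole and B6 DP libraries Xist had 1.45 to 4.20 CPM. Comparisons with BALB whole may therefore mix sex with strain or population, which was not tested. Since bulk RNA was measured, fewer cells of a type and less RNA per cell cannot be told apart in any difference given here.

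Ccnd2 was the gene of the family that separated whole from DP thymocytes most widely. Ccnd2 (ENSMUSG00000000184.12, chromosome 6, 127125162 to 127152193, minus strand; all positions are in mm10) encodes the D cyclin that growth factor and antigen receptor signals induce in lymphocytes. In BALB whole thymocytes it had 132 and 134 CPM, and in BALB DP thymocytes 0.175 and 0 CPM, that is 1 count in both libraries together. Its ratio of BALB whole to BALB DP was 1099, with an exact 95% counting interval of 197 to 43458 that covers counting error only. In B6 whole thymocytes it had 117 and 101 CPM, and in B6 DP thymocytes 0.628 and 1.37 CPM from 8 counts. Its ratio of B6 whole to B6 DP was 103, with an exact 95% counting interval of 52.1 to 239. The rise in B6 was a log2 fold change of 6.65 ± 0.26 (SE, n = 2 libraries per group), with an adjusted p of 1.06e-07 by edgeR's quasi-likelihood test, adjusted over all genes tested as Benjamini and Hochberg proposed. That SE was derived from the F statistic and understates the counting error of 8 counts, which the interval covers. The groups did not overlap in either strain, and every alternative setting kept the call.

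Between the strains Ccnd2 was not called. In whole thymocytes the BALB libraries lay above the B6 libraries, by a log2 fold change of 0.28 ± 0.14 (edgeR adjusted p = 0.385). In DP thymocytes the ratio of BALB to B6 was 0.114 with an exact 95% counting interval of 0.00257 to 0.851, from 1 count in BALB and 8 in B6 (edgeR adjusted p = 0.0601). The order of the 4 groups was BALB whole, B6 whole, B6 DP and BALB DP, and no neighbours in it overlapped. The 95% counting intervals of the single DP libraries did overlap, so the order of the DP groups is not settled.

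Markers of several cell types outside the DP stage moved with Ccnd2. Of all genes tested, 10.6% were higher and 6.59% lower in BALB whole over BALB DP, and 6.89% and 3.27% in B6 whole over B6 DP. Over both strains these shares were 12.5% and 8.01%. Of 10 DN thymocyte markers tested, 6 rose in BALB whole over BALB DP and 5 in B6 whole over B6 DP, and none fell. Over both strains 6 of the DN markers rose and 1 fell. The median log2 fold change of the DN markers in whole over DP was 1.44 in BALB and 1.64 in B6. The summed DN markers, 13 of 14 being in the tables, were not higher in whole thymocytes. A sum follows its most abundant genes, so it does not show the course of scarcer ones. It was 1763 and 1963 CPM in BALB whole against 1888 and 2033 CPM in BALB DP, which overlap. In B6 it was 2054 and 1944 CPM in whole against 2188 and 2084 CPM in DP thymocytes, which do not. Of 14 Mature thymocyte markers, 12 rose in BALB whole over BALB DP and 9 in B6 whole over B6 DP, with none falling in either. That list holds Cd69, which the sort itself selected against. S1pr1, a receptor used in leaving the thymus, had no counts in B6 DP. The summed B cell markers, 8 of 10 being in the tables, were 31.2 and 19.7 CPM in BALB whole against 5.08 and 3.88 CPM in BALB DP, and 29.5 and 24.4 CPM in B6 whole against 10.4 and 11.9 CPM in B6 DP. Summed Myeloid and dendritic cell markers, 13 of 14 listed, were 187 and 206 CPM in BALB whole against 60.3 and 53.6 CPM in BALB DP, and 161 and 159 CPM in B6 whole against 43.6 and 55.1 CPM in B6 DP. Summed Thymic epithelial cell markers, all 12 listed, were 106 and 117 CPM in BALB whole against 20.1 and 18.2 CPM in BALB DP, and 51.5 and 60.95 CPM in B6 whole against 23.5 and 25.1 CPM in B6 DP. Both DP groups had no counts of the epithelial factor Foxn1 and of Krt14, and BALB DP had none of the B cell factor Pax5. The part of each cell type in the Ccnd2 level was not tested.

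Ccnd3 ran the other way. This gene (ENSMUSG00000034165.16, chromosome 17, 47505051 to 47599691, plus strand) encodes the D cyclin that immature T cells rely on for expansion. It had 436 and 469 CPM in BALB whole and 650 and 728 CPM in BALB DP thymocytes, and the groups did not overlap. The change in BALB was a log2 fold change of −0.61 ± 0.10 (edgeR adjusted p = 0.00165), called under all 17 alternatives run for it. In B6 the levels were 379 and 413 CPM in whole and 497 and 473 CPM in DP thymocytes, also without overlap, a log2 fold change of −0.29 ± 0.10 that did not pass (adjusted p = 0.0910). It passed in B6 without BALB DP replicate 1 or 2, at a log2 fold change of −0.28 in each fit. These libraries stand outside the comparison but enter the filter, the scaling and the shared estimate of spread.

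Within DP thymocytes Ccnd3 was higher in BALB than in B6. The log2 fold change was 0.51 ± 0.10 (edgeR adjusted p = 0.00660), with every BALB DP library above every B6 DP library. The call ended without B6 DP replicate 2, at an adjusted p of 0.0846, and with the 4 DP libraries alone (0.0553). Whole thymocytes of BALB and B6 differed in the same direction by 0.19 ± 0.10, which did not pass (adjusted p = 0.435). The difference between both strain effects, the interaction, was −0.31 ± 0.14 and was not called (edgeR adjusted p = 0.448). The population effects on Ccnd3 were thus not shown to differ between strains. Over both strains whole over DP was −0.45 ± 0.084 and passed (edgeR adjusted p = 0.00256). Over both populations in an additive model Ccnd3 was higher in BALB by 0.35 ± 0.084 (adjusted p = 0.0196). That call ended without B6 DP replicate 1 (0.0719), B6 DP replicate 2 (0.104), B6 whole replicate 1 (0.0553) and BALB DP replicate 2 (0.0534).

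Ccnd1 was scarce in all groups. This gene (ENSMUSG00000070348.5, chromosome 7, 144929931 to 144939925, minus strand) encodes the D cyclin of many epithelial and mesenchymal cells. It had 6.76 and 8.99 CPM in BALB whole, 6.66 and 5.05 CPM in BALB DP, 11.998 and 10.9 CPM in B6 whole and 5.96 and 6.86 CPM in B6 DP thymocytes. The B6 whole libraries were the highest, and in the order of the other 3 each overlapped its neighbour. In B6 the log2 fold change of whole over DP was 0.82 ± 0.28, which did not pass (edgeR adjusted p = 0.0857) and passed without BALB DP replicate 2 (0.0483). Over both strains it was 0.61 ± 0.20 and did not pass (edgeR adjusted p = 0.0536), and 5 of 15 alternatives called it, with adjusted p-values of 0.0157 to 0.155 over the alternatives. Among these were the fits without BALB DP replicate 1 (0.0230) and without BALB whole replicate 1 (0.0380). Endothelial and mesenchymal markers, all 12 listed, summed to 179 and 164 CPM in B6 whole and 152 and 170 CPM in B6 DP thymocytes, with 8 of them at 0 in B6 DP and 1 in B6 whole, and their part in the Ccnd1 level was not tested. Exons of Oraov1 (Lto1), on the opposite strand, cover 23.4% of the Ccnd1 exon sequence in GENCODE, and the library kit does not mark strand. Oraov1 had 22.6 to 31.0 CPM over the libraries, above Ccnd1 in each, and its part in the Ccnd1 value was not tested.

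**Figure D1:**
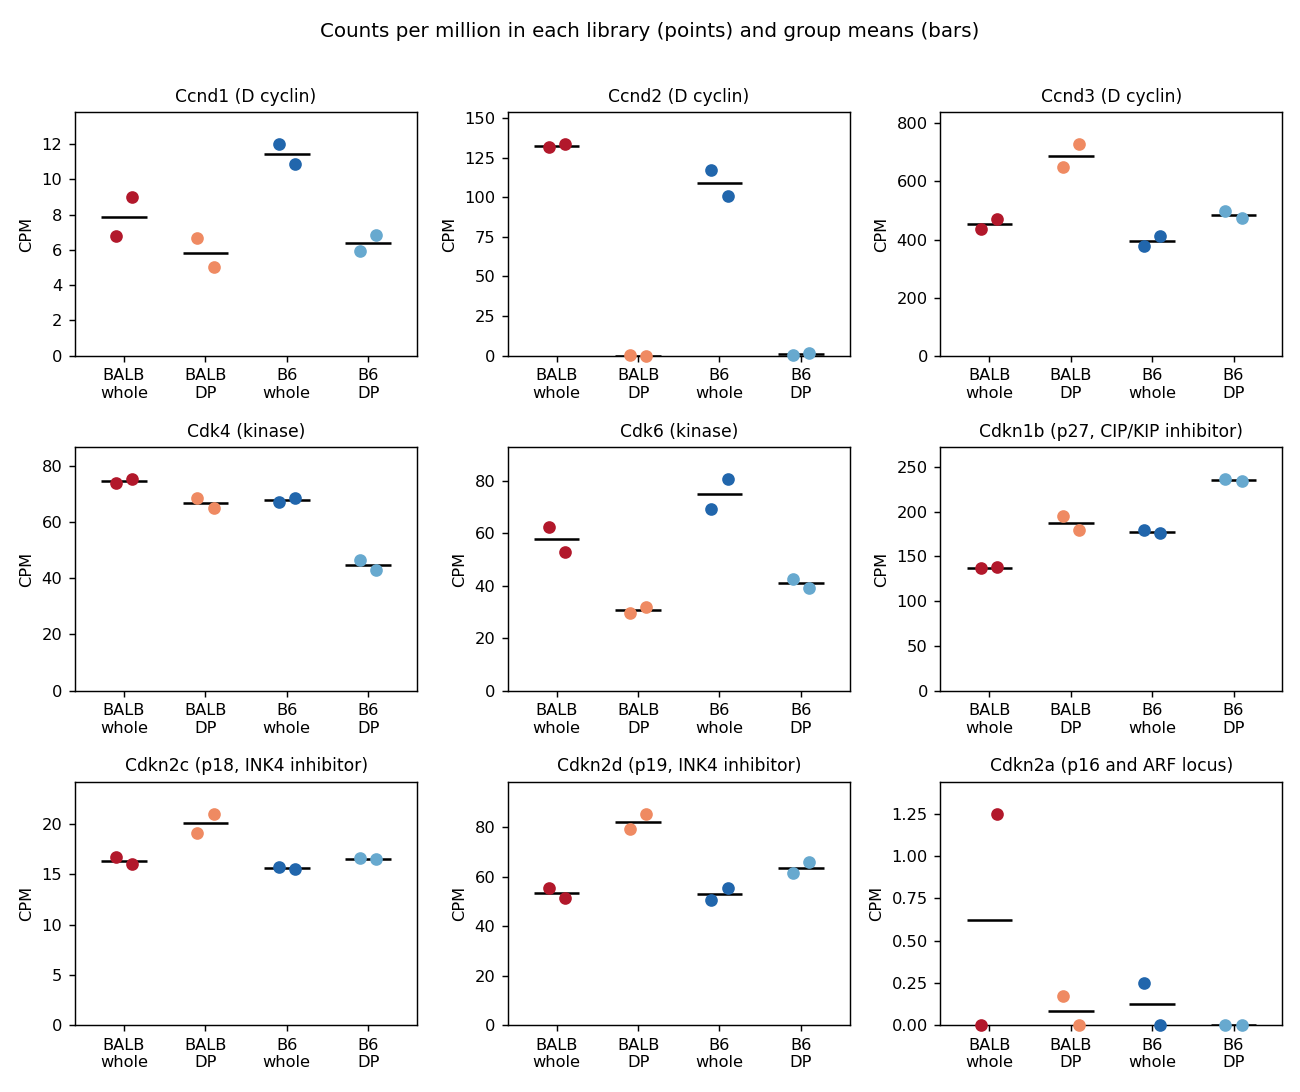
Each panel plots the CPM of 1 of the 9 genes, with a point for each library and a bar at the mean of each group of 2. Ccnd2 lies near 0 in both DP groups and at 101 CPM or more in whole thymocytes, while Ccnd3, Cdkn1b and Cdkn2d have their highest libraries in a DP group.

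Per length, Ccnd3 made up most of the D cyclin transcripts in every library. On the scale of RPKM (CPM divided by the exon length of the gene), the level of Ccnd3 was 51.6 ± 2.67 in BALB whole, 78.6 ± 6.28 in BALB DP, 45.1 ± 2.73 in B6 whole and 55.3 ± 1.93 in B6 DP thymocytes (SD, n = 2 each). The level of Ccnd2 was 14.1 ± 0.13 RPKM in BALB whole and 11.6 ± 1.25 RPKM in B6 whole thymocytes, and that of Ccnd1 was 1.24 to 2.43 RPKM over the 4 group means. Ccnd3 thus held 76.6% ± 0.41 of the D cyclin sum in BALB whole and 98.4% ± 0.44 in BALB DP, and 76.2% ± 2.92 in B6 whole and 97.4% ± 0.41 in B6 DP thymocytes. Ccnd2 held 20.96% ± 0.79 in BALB whole and 19.6% ± 2.55 in B6 whole thymocytes, against 0.0123% ± 0.0174 in BALB DP and 0.189% ± 0.104 in B6 DP thymocytes.

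The D cyclin sum itself was less different between populations than its parts. It was 65.1 and 69.6 RPKM in BALB whole against 75.5 and 84.1 RPKM in BALB DP, and 58.2 and 60.1 RPKM in B6 whole against 58.0 and 55.5 RPKM in B6 DP thymocytes. The shares rest on the exon length taken for each gene. With the longest transcript in place of all exons, an alternative chosen after seeing the data, Ccnd3 held 83.6% in BALB whole, 99.1% in BALB DP, 83.4% in B6 whole and 98.5% in B6 DP thymocytes. On that length the D cyclin sum in B6 turned its direction, at 122.9 RPKM in B6 whole against 127.6 RPKM in B6 DP thymocytes on average, so no direction of the sum is given for B6.

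**Figure D2:**
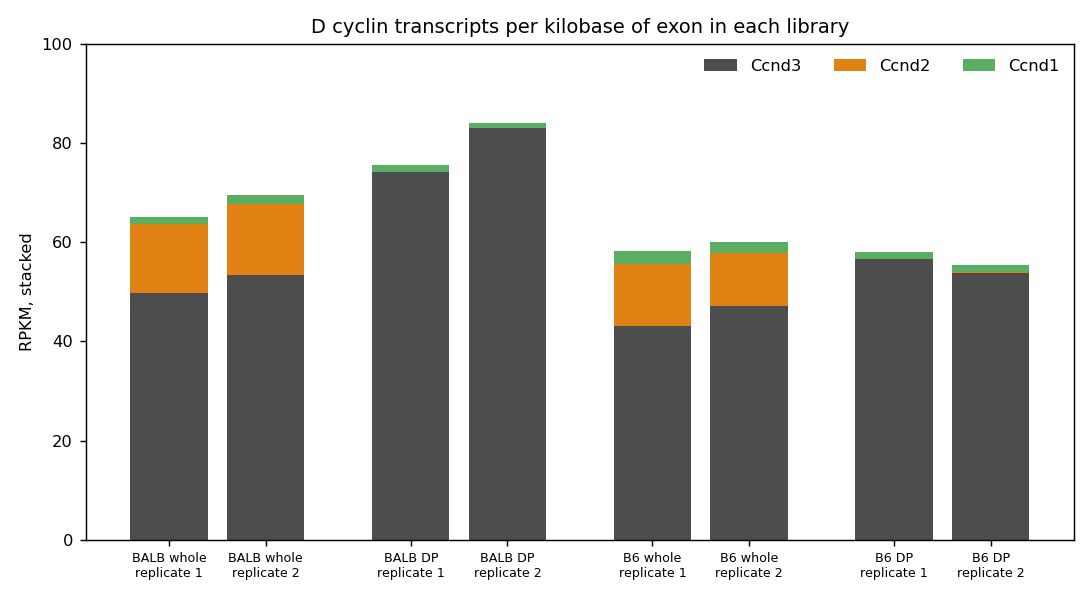
Stacked bars give the RPKM of Ccnd3, Ccnd2 and Ccnd1 in each of the 8 libraries. The Ccnd2 segment, 17.8% to 21.5% of the bar, is visible in the 4 whole thymocyte libraries, and the DP bars are 97.1% to 98.7% Ccnd3.

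The kinases were both higher in whole than in DP thymocytes, Cdk6 in both strains and Cdk4 in B6. Cdk6 (ENSMUSG00000040274.11, chromosome 5, 3341485 to 3531008, plus strand) had 62.6 and 52.9 CPM in BALB whole and 29.4 and 31.8 CPM in BALB DP thymocytes. It had 69.2 and 80.8 CPM in B6 whole and 42.7 and 39.3 CPM in B6 DP thymocytes, and no 2 neighbouring groups overlapped. The log2 fold change was 0.92 ± 0.15 in BALB (edgeR adjusted p = 0.00183) and 0.87 ± 0.15 in B6 (0.00325). The call in B6 ended without B6 whole replicate 2, at an adjusted p of 0.0543.

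Cdk6 had lower values in BALB than in B6 in both populations. The log2 fold change of BALB over B6 was −0.38 ± 0.14 in whole (edgeR adjusted p = 0.220) and −0.43 ± 0.16 in DP thymocytes (0.0998), and neither passed. Over both populations it was −0.40 ± 0.10 and passed (adjusted p = 0.0301). That call ended without B6 DP replicate 1 (0.0915), B6 DP replicate 2 (0.0635), B6 whole replicate 2 (0.110) and BALB whole replicate 2 (0.0988), and in the DESeq2 Wald test (0.0530).

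Cdk4 (ENSMUSG00000006728.12, chromosome 10, 127063534 to 127067920, plus strand) set B6 DP thymocytes apart from the other 3 groups. It had 73.9 and 75.4 CPM in BALB whole, 68.7 and 65.2 CPM in BALB DP, 67.2 and 68.7 CPM in B6 whole and 46.5 and 43.0 CPM in B6 DP thymocytes. B6 whole and BALB DP overlapped in the order of groups, and B6 DP lay below all other libraries. Whole over DP gave a log2 fold change of 0.15 ± 0.12 in BALB, which did not pass (edgeR adjusted p = 0.423), and 0.61 ± 0.12 in B6, which did (0.00942). BALB over B6 gave 0.14 ± 0.12 in whole, which did not pass (0.733), and 0.59 ± 0.13 in DP thymocytes, which did (0.0101). The interaction, −0.45 ± 0.17, was not called (adjusted p = 0.378), so the population effects were not shown to differ between strains, and it was called without BALB DP replicate 2 (0.0485).

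Over both strains Cdk4 was higher in whole than in DP thymocytes by 0.37 ± 0.11 (adjusted p = 0.0291), a call that ended without any 1 of the B6 libraries (0.0884 to 0.115).

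The Cdk4 calls rest on few libraries. The rise in B6 ended on leaving out any of the 4 B6 libraries, at adjusted p-values of 0.0629 and 0.108 without B6 DP replicates 1 and 2, and of 0.0849 and 0.0958 without B6 whole replicates 1 and 2. The BALB DP over B6 DP call ended without B6 DP replicate 1 (0.0538) or 2 (0.122), and with the 4 DP libraries alone (0.0753). Exons of Tspan31, on the opposite strand, cover 19.7% of the Cdk4 exon sequence. Reads there may have been set aside as ambiguous or counted for either gene, since the counting mode is not given. Tspan31 rose in B6 whole over B6 DP by 1.90 ± 0.32 (edgeR adjusted p = 0.00304) at lower counts, 45 and 48 in B6 whole against 9 and 14 in B6 DP, and its part in the Cdk4 value was not tested.

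Per length, Cdk4 transcripts exceeded those of Cdk6 in every library. The level of Cdk4 was 23.0 ± 0.32 RPKM in BALB whole, 20.6 ± 0.75 in BALB DP, 20.9 ± 0.32 in B6 whole and 13.8 ± 0.76 in B6 DP thymocytes. The level of Cdk6 was 4.13 ± 0.49 RPKM in BALB whole, 2.19 ± 0.12 in BALB DP, 5.36 ± 0.58 in B6 whole and 2.93 ± 0.17 in B6 DP thymocytes. The ratio of Cdk4 to Cdk6 was 5.09 and 6.13 in BALB whole against 10.05 and 8.82 in BALB DP, and 4.18 and 3.66 in B6 whole against 4.69 and 4.71 in B6 DP thymocytes. BALB DP libraries had the highest ratios, without overlap with any other group.

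Of the inhibitors, Cdkn1b was lower in whole than in DP thymocytes of both strains. This gene (ENSMUSG00000003031.14, chromosome 6, 134920401 to 134925513, plus strand) encodes p27, which holds resting lymphocytes out of the cycle. It had 137 and 138 CPM in BALB whole and 196 and 180 CPM in BALB DP, and 179 and 176 CPM in B6 whole and 236 and 234 CPM in B6 DP thymocytes. No neighbouring groups overlapped, and B6 DP was the highest. Whole over DP was −0.46 ± 0.099 on the log2 scale in BALB (edgeR adjusted p = 0.00833) and −0.41 ± 0.098 in B6 (0.0213). The B6 call ended on leaving out any B6 library (adjusted p = 0.154 to 0.191) and in the DESeq2 Wald test (0.0677). The BALB call ended without BALB whole replicate 1 (0.0507) or 2 (0.0506) and with the 4 BALB libraries alone (0.0832).

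Cdkn1b was also lower in BALB than in B6. Over both populations the log2 fold change was −0.35 ± 0.070 (edgeR adjusted p = 0.00710), and it was called on leaving out each library in turn. Within DP thymocytes it was −0.32 ± 0.098 at an adjusted p of 0.0499, just inside the threshold, and it lost the call with the replicate number as a block (0.0674) and under 10 other settings, without either B6 DP library (0.231 and 0.247) among them. Within whole thymocytes it was −0.37 ± 0.099 and did not pass (0.0577), but passed without BALB DP replicate 1 (0.00327) or 2 (0.00331). The interaction was −0.049 ± 0.14 (adjusted p = 0.933).

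Cdkn2d followed Ccnd3 rather than Cdkn1b in its order of groups. This gene (ENSMUSG00000096472.2, chromosome 9, 21288410 to 21291407, minus strand) encodes the INK4 inhibitor p19. It had 55.3 and 51.4 CPM in BALB whole, 79.2 and 85.4 CPM in BALB DP, 50.5 and 55.4 CPM in B6 whole and 61.5 and 66.0 CPM in B6 DP thymocytes. Both whole groups overlapped each other, and the DP groups lay above them and apart. Whole over DP was −0.62 ± 0.13 on the log2 scale in BALB (edgeR adjusted p = 0.00608), a call that ended without BALB whole replicate 2 (0.0554), and −0.27 ± 0.13 in B6, which did not pass (0.229). BALB over B6 was 0.36 ± 0.13 in DP thymocytes and did not pass (0.0808). The interaction, −0.35 ± 0.18, was not called (edgeR adjusted p = 0.506), so the population effects on Cdkn2d were not shown to differ between strains. Over both strains whole over DP was −0.45 ± 0.10 and passed (edgeR adjusted p = 0.00905).

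Cdkn2c and Cdkn2a gave no call. Cdkn2c (ENSMUSG00000028551.14, chromosome 4, 109660876 to 109667189, minus strand), the p18 gene, had 16.7 and 15.98 CPM in BALB whole, 19.1 and 20.96 CPM in BALB DP, 15.7 and 15.5 CPM in B6 whole and 16.6 and 16.5 CPM in B6 DP thymocytes. BALB DP was the highest group and did not overlap the others, but the log2 fold change of BALB whole over BALB DP, −0.28 ± 0.18, did not pass (edgeR adjusted p = 0.317), nor did BALB over B6 in DP, 0.26 ± 0.18 (0.375). Cdkn2a (ENSMUSG00000044303.6, chromosome 4, 89274471 to 89294653, minus strand) makes both p16 and ARF, which counts per gene cannot separate. It had 5 counts in BALB whole, all in replicate 2, 1 in BALB DP, 1 in B6 whole and none in B6 DP thymocytes, where a count of 0 allows up to 0.397 CPM over the group. No difference in Cdkn2a was detectable at this depth.

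Summed per length, the 4 inhibitors had higher values in DP than in whole thymocytes of both strains, without overlap, a description with no test. The sum was 71.4 and 69.9 RPKM in BALB whole against 101 and 102 RPKM in BALB DP, and 77.5 and 79.5 RPKM in B6 whole against 97.2 and 99.5 RPKM in B6 DP thymocytes. Cdkn1b and Cdkn2d carried most of it, with 41.2 ± 2.45 RPKM of Cdkn1b and 52.3 ± 2.79 RPKM of Cdkn2d in BALB DP, and 51.7 ± 0.37 and 40.5 ± 2.03 RPKM of the same genes in B6 DP thymocytes. Inhibitor over D cyclin RPKM was 1.05 ± 0.064 in BALB whole and 1.27 ± 0.087 in BALB DP, and 1.33 ± 0.0056 in B6 whole and 1.73 ± 0.081 in B6 DP thymocytes. With the longest transcripts this ratio was 0.535 in BALB whole, 0.597 in BALB DP, 0.672 in B6 whole and 0.809 in B6 DP thymocytes, the same order at lower values.

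**Figure D3:**
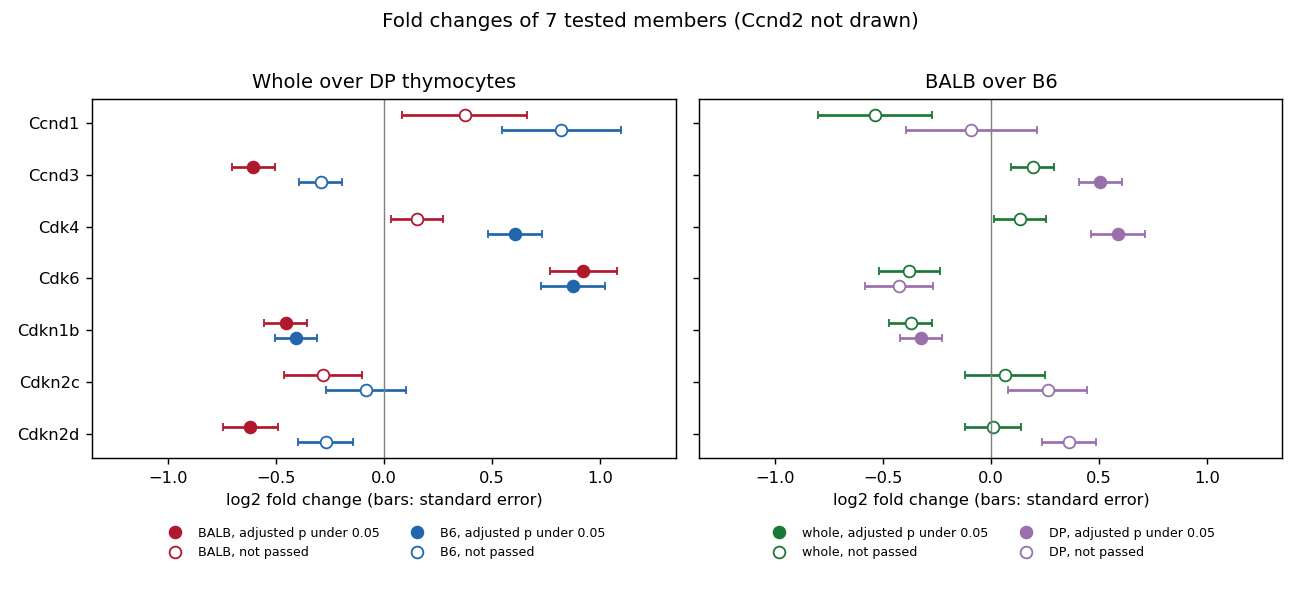
Log2 fold changes of whole over DP thymocytes (left) and BALB over B6 (right) for 7 of the tested genes, with standard errors from the fit of all 8 libraries; filled points passed an adjusted p of 0.05. Cdk6 lies right of 0 and Cdkn1b left of 0 in both strains on the left, and Ccnd3 and Cdk4 are the filled points right of 0 on the right, both in DP thymocytes.

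As counts over the family, 5 of the 8 tested genes were called in BALB whole over BALB DP (Ccnd2 and Cdk6 higher, Ccnd3, Cdkn1b and Cdkn2d lower), where 17.2% of all genes tested were called, 10.6% higher and 6.59% lower. In B6 whole over B6 DP 4 of 8 were called (Ccnd2, Cdk4 and Cdk6 higher, Cdkn1b lower), against 10.2% of all genes, 6.89% higher and 3.27% lower. In BALB over B6 within DP 3 of 8 were called (Ccnd3 and Cdk4 higher, Cdkn1b lower), against 13.0%, 6.85% higher and 6.14% lower. In BALB over B6 within whole thymocytes edgeR called 0 of 8, against 4.59% of all genes (1.98% higher and 2.61% lower), with 2 at an unadjusted p under 0.05 and 0 called by DESeq2 or limma-voom. The interaction called 0 of 8 in edgeR, against 0.123% of all genes (0.105% higher and 0.0175% lower), with 3 at an unadjusted p under 0.05 and 0 by DESeq2 or limma-voom. Without BALB DP replicate 1 and BALB whole replicate 1 together, the counts were 5 in BALB whole over BALB DP, 6 in B6 whole over B6 DP, 3 in BALB over B6 within DP, 3 within whole and 0 in the interaction. The comparisons share libraries, so their counts are not independent of each other. How many of all genes had an unadjusted p under 0.05 is not given here. Over both strains whole over DP called 6 of 8 (20.5% of all genes, 12.5% higher and 8.01% lower), and over both populations BALB over B6 called 3 of 8 (10.8%, with 4.84% higher and 685 genes lower).

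Other genes of the G1 to S step were described from lists of the cell cycle. In BALB over B6 within whole thymocytes edgeR called 0 of 19 G2 and mitosis genes and 0 of 20 S phase genes. Of all genes tested, 1.98% were higher and 2.61% lower there. The median log2 fold changes there were 0.043 and −0.069, and limma-voom called 1 S phase gene. In BALB DP over B6 DP, where Ccnd3 and Cdk4 were higher, 16 of 19 G2 and mitosis genes and 14 of 20 S phase genes were also higher and none lower. Of all genes tested, 6.85% were higher and 6.14% lower in that comparison. The medians of the 2 lists were 0.66 and 0.56 against 0.0028 over all genes tested. Among the higher genes were Birc5, an inhibitor of cell death that acts in mitosis, at 0.92 ± 0.14, the topoisomerase Top2a at 0.66 ± 0.10 and the replication helicase subunit Mcm3 at 0.66 ± 0.11 (edgeR adjusted p at most 0.00248). Without BALB DP replicate 1 the counts were 16 and 10, without B6 DP replicate 1 they were 10 and 6, and without B6 DP replicate 2 they were 8 and 2.

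The same lists were called in BALB whole over BALB DP, which shares the BALB DP libraries. There 16 of 19 G2 and mitosis genes and 10 of 20 S phase genes were lower and none higher, against 6.59% of all genes lower and 10.6% higher. The medians were −0.61 and −0.39 against −0.0042 over all genes, and Mki67, a marker of cycling cells, changed by −0.67 ± 0.10 (edgeR adjusted p = 0.00103). Without BALB whole replicate 1 the counts were 10 and 4, without BALB whole replicate 2 they were 12 and 3, and without B6 whole replicate 1 or 2 they were 15 and 6. In B6 whole over B6 DP edgeR called 0 of the 19 G2 and mitosis genes (0 at an unadjusted p under 0.05, 0 by DESeq2 and 0 by limma-voom) and 1 of 20 S phase genes, the polymerase subunit Pole at 0.58 ± 0.12 (adjusted p = 0.00830). Of all genes tested, 6.89% were higher and 3.27% lower in B6 whole over B6 DP. The interaction called 0 of 19 and 0 of 20 in edgeR, against 0.123% of all genes. At an unadjusted p under 0.05 it had 16 and 15, and the share of all genes at that threshold is not given here. DESeq2 called 1 G2 and mitosis gene in the interaction. The population effects on these lists were thus not shown to differ between strains. How far Ccnd3, Cdk4 and Cdkn2d levels follow the share of cycling cells in each library was not tested.

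The targets and partners of the D cyclin kinases gave smaller counts, to be read against the share of all genes called, which was 10.6% higher and 6.59% lower in BALB whole over BALB DP, 6.89% and 3.27% in B6 whole over B6 DP, and 6.85% and 6.14% in BALB over B6 within DP. Of 17 Rb family, E2F and DP factors, 7 were lower in BALB whole over BALB DP, with a median log2 fold change of −0.37, and 5 were higher in BALB over B6 within DP, with a median of 0.34. E2f7 and E2f8, repressor E2Fs that are made late in the cycle, were lower in BALB whole over BALB DP by −0.90 ± 0.15 and −0.74 ± 0.10 (edgeR adjusted p = 0.00168 and 0.000497). In B6 whole over B6 DP 2 were higher and 3 lower, with Rb1, the retinoblastoma protein, at −0.48 ± 0.11 (adjusted p = 0.0186) and E2f3, an activator, at 0.53 ± 0.15 (0.0406). Of 10 genes of the cyclin E, cyclin A and CDK2 step, 3 were lower in BALB whole over BALB DP and 4 were higher in BALB over B6 within DP, Ccne1, or cyclin E1, by 0.90 ± 0.18 (adjusted p = 0.00699). Genes of D cyclin and p27 turnover, 13 tested, held 1 higher and 3 lower in BALB whole over BALB DP. Among the lower was Skp1a, a ubiquitin ligase subunit, at −0.72 ± 0.16 (edgeR adjusted p = 0.00937), with 377 and 247 CPM in BALB DP replicates 1 and 2. These counts rest on single libraries. On leaving out 1 library, the Rb, E2F and DP factors lower in BALB whole over BALB DP numbered 3 (without BALB whole replicate 1 or 2) to 9 (without BALB DP replicate 2), and those higher in BALB over B6 within DP 2 (without BALB DP replicate 1 or B6 DP replicate 2) to 8 (without BALB DP replicate 2). In B6 whole over B6 DP none was lower without any 1 of the B6 libraries, and 1 was lower without BALB whole replicate 1 or 2 and 6 without BALB DP replicate 1 or 2. The 2 higher calls there fell to 1 without B6 DP replicate 1, and to 0 without any 1 of the other B6 libraries, without either BALB whole library, in the DESeq2 Wald test and with the replicate number as a block. The cyclin E, cyclin A and CDK2 genes lower in BALB whole over BALB DP numbered 0 without BALB whole replicate 2 and 1 without BALB DP replicate 1, and those higher in BALB over B6 within DP 1 without BALB DP replicate 1 or B6 DP replicate 1. The turnover genes lower in BALB whole over BALB DP numbered 0 without BALB whole replicate 2 and 1 without BALB whole replicate 1. The 1 higher turnover gene was not called in the DESeq2 Wald test, with the 4 libraries compared alone, or on leaving out any 1 library but BALB DP replicate 2, without which 2 were called.

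Of 4 inhibitors outside the family, Cdkn1c and Cdkn3 had enough counts to be tested. Cdkn1a (p21) had 0 to 13 counts per library and Cdkn2b (p15) 0 to 7, and neither was tested. Cdkn1c (p57) had 1.45 and 4.99 CPM in BALB whole, 5.78 and 5.82 CPM in BALB DP, 3.50 and 4.11 CPM in B6 whole and 6.91 and 9.14 CPM in B6 DP thymocytes, and it was lower in whole over DP over both strains by −0.98 ± 0.31 (edgeR adjusted p = 0.0438), a call that the DESeq2 Wald test did not make. Cdkn3, a phosphatase of cyclin-dependent kinases, was lower in BALB whole over BALB DP by −1.21 ± 0.24 (0.00552), a call that ended without BALB DP replicate 1.

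Signals and factors upstream of the D cyclins, a list that holds both activating and restraining genes, moved in both directions in whole over DP thymocytes of both strains. Of 19 tested, 5 were higher and 3 lower in BALB whole over BALB DP, where 10.6% of all genes were higher and 6.59% lower, with 5 lower without BALB DP replicate 1. In B6 whole over B6 DP 4 were higher and 3 lower, against 6.89% and 3.27% of all genes. The B6 counts were 7 higher and 5 lower without BALB DP replicate 1 or 2, and 1 was lower without B6 whole replicate 1. Myc, a transcription factor that induces Ccnd2 and Cdk4 in other cells, had 54.3 and 58.9 CPM in BALB whole against 15.8 and 16.3 CPM in BALB DP, and 64.5 and 50.8 CPM in B6 whole against 14.1 and 17.8 CPM in B6 DP thymocytes. Its log2 fold changes were 1.82 ± 0.18 in BALB and 1.83 ± 0.18 in B6 (edgeR adjusted p = 5.83e-05 and 9.51e-05). Klf2, a factor of mature quiescent T cells, rose by 3.14 ± 0.24 and 2.27 ± 0.24 in the same comparisons (6.92e-06 and 0.000149). Il7r, the receptor for a cytokine of DN and mature thymocytes, had 89.4 and 71.6 CPM in BALB whole against 0.526 and 0 CPM in BALB DP. In BALB over B6 within DP, 4 were lower and none higher, against 6.14% and 6.85% of all genes, among them the repressor Bcl6 at −0.54 ± 0.094 (0.00329), Foxo1, a factor that promotes Cdkn1b transcription in other cells, at −0.66 ± 0.14 (0.00906), and the pre-T cell receptor chain Ptcra at −0.97 ± 0.22 (0.0133). That count was 1 without B6 DP replicate 1, 2 without B6 DP replicate 2 and 8 without BALB DP replicate 2.

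**Figure D4:**
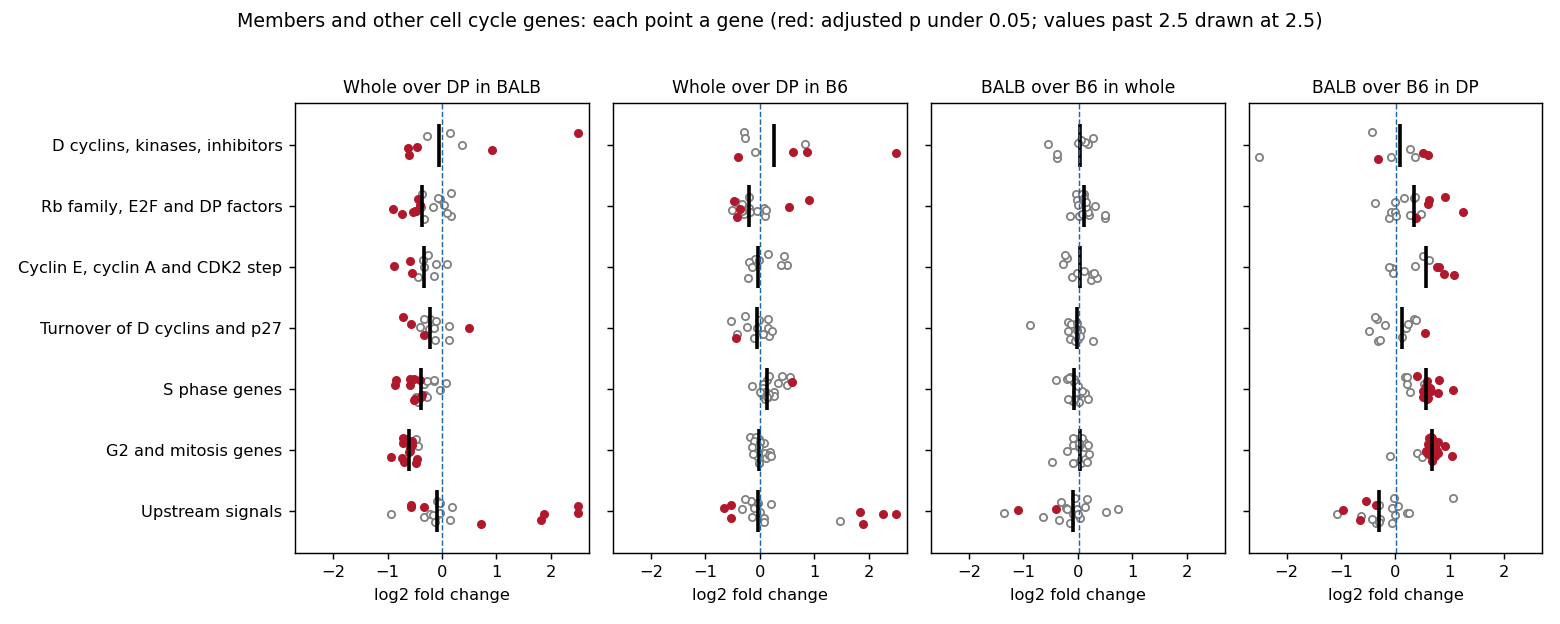
Log2 fold changes of each tested gene of the D cyclin family and of 6 cell cycle and signal lists in 4 comparisons, with red points past an adjusted p of 0.05, black bars at list medians and a dashed line at the median of all genes. Values past 2.5 are drawn at 2.5. The called G2 and mitosis genes lie left of the line in BALB whole over BALB DP and right of it in BALB over B6 within DP, and the list's medians in B6 whole over B6 DP and in BALB over B6 within whole are −0.014 and 0.043.

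Promoter sequence from RefSeq (GRCm38.p6) was matched for 7 of the 9 genes, Ccnd3, Cdk4, Cdk6, Cdkn1b, Cdkn2c, Cdkn2d and Cdkn2a. The 250 bases before the RefSeq start are shown for the kinases Cdk4 and Cdk6 and the inhibitors Cdkn1b and Cdkn2d. Over both strains these kinases were higher and these inhibitors lower in whole thymocytes. Within strains, Cdk4 was called in B6 alone and Cdkn2d in BALB alone. The RefSeq start can differ from the GENCODE gene positions given above. The Cdk6 window lies within the GENCODE gene, and the Cdkn2d window lies partly within its gene. Capitals mark each CACGTG, the E-box that Myc and its partner Max bind, and each GGGCGG on either strand, the GC box bound by Sp1, and no capitals overlap. Cdk4 is at chr10:127063285-127063534 (plus strand), Cdk6 at chr5:3343643-3343892 (plus), Cdkn1b at chr6:134920151-134920400 (plus) and Cdkn2d at chr9:21291210-21291459 (minus).
Cdk4: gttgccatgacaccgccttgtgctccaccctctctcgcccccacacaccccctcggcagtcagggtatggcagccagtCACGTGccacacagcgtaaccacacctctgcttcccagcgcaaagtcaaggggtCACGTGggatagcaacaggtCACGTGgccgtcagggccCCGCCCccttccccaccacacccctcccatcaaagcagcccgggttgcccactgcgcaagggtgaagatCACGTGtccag
Cdk6: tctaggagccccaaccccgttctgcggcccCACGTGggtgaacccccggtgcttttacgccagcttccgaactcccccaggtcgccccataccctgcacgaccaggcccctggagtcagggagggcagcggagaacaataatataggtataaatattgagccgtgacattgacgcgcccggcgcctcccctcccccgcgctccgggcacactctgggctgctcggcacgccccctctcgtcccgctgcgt
Cdkn1b: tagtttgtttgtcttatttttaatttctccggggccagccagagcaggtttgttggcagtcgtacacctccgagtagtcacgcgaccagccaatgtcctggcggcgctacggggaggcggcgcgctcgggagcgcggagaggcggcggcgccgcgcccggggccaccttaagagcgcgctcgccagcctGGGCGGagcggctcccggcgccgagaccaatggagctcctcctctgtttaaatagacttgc
Cdkn2d: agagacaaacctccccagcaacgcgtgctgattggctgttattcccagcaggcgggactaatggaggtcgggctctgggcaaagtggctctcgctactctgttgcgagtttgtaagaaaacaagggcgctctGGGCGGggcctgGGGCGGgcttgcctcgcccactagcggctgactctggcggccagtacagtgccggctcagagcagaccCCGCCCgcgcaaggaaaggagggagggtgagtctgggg

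The Cdk4 window held 4 CACGTG and the Cdk6 window 1, and no other window of the 7 genes held any. Of all 32851 promoter windows of 250 bases in the table, 6.02% held at least 1. The GC box was matched 1 time in Cdk4, 1 time in Cdkn1b and 3 times in Cdkn2d, it occurred also in windows of Ccnd3, Cdkn2c and Cdkn2a, and 32.7% of all windows held it. The E2F letters TTTCCCGC, TTTGGCGC, TTTCGCGC and TTTGCCGC, searched on both strands and held by 1.86% of all windows, were matched in 1 window of Cdkn2a alone. The FOXO letters TTGTTTAC, in 1.07% of all windows, were matched in none of the 10 windows of these genes. The windows shown held 63.6% to 66.0% G and C, against a median of 52.4% over all windows, and such letters occur more readily in GC-rich sequence. A match describes these letters in this window and is not a measured binding site.

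Genes with the most similar course over the 8 libraries were found by Pearson's correlation of log2 CPM among 9644 genes averaging at least 5 CPM, as a description over libraries that fall into 4 groups. For Ccnd2 these were Cd74, the MHC class II invariant chain (r = 0.998), Adam19 (0.997) and Vcam1 (0.995). Vcam1, an adhesion molecule, averaged 20.0 CPM in BALB whole against 0.175 CPM in BALB DP, and 15.5 CPM in B6 whole against 0.728 CPM in B6 DP thymocytes. For Ccnd3 they were Gm16039 (0.985), the hexokinase gene Hk1 (0.979) and Aspm, a spindle gene (0.976). For Cdkn2c the closest was Ccnd3 itself (0.955), followed by Stom (0.951) and Uhrf1 (0.951), which maintains DNA methylation in dividing cells.

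For Cdkn1b the closest were the clock gene Arntl (r = 0.993), Ssbp2 (0.984) and the DP stage gene Arpp21 (0.984), which averaged 1306 CPM in BALB whole against 2004 CPM in BALB DP, and 1715 CPM in B6 whole against 2610 CPM in B6 DP thymocytes. For Cdkn2d they were Fem1c (0.973), Anxa2 (0.972) and Tceb3 (0.969). For Cdk4 they were Prr13 (0.984), Adk (0.978) and the adhesion receptor Cd2 (0.971), and for Cdk6 Mtmr11 (0.986), Ifrd2 (0.982) and the protease gene Ctsc (0.972). For Ccnd1 they were Zfp59 (0.984), Rrp9 (0.961) and Tspyl3 (0.952), all at or below 18.5 CPM in every group mean.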

How the data were processed

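RNA was measured in 8 thymocyte libraries prepared with a TruSeq RNA kit (v2), per the labels. The submitters' processing notes name HISAT2 2.2.0, HTSeq, DESeq2 1.42.1 and the build mm10, without their roles. The sources used here give neither the counting mode nor the annotation. The authors deposited raw whole-number counts per gene symbol. Reads in no gene (43.3% to 48.9% of all), not aligned (12.8% to 21.2%) or not unique (10.1% to 11.9%) stayed out of library sizes. So did reads ambiguous between genes (0.214% to 0.301%).

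Groups were taken from the sample titles. Genes were kept by filterByExpr (11409), TMM-scaled and fitted by edgeR 4.0.16 quasi-likelihood in R 4.3.3, with 1 coefficient per group over all 8 libraries, or strain plus population for comparisons over both. Adjusted p-values are Benjamini-Hochberg over all genes tested, called under 0.05. Standard errors were derived from the fold change and its F statistic. CPM uses the scaled library sizes, and RPKM divides it by the union of GENCODE M21 exons. Counting intervals are exact at 95% and floors use 3 counts over a group. Alternatives used DESeq2 1.42.0 and limma 3.58.1 among others.

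Named were all 9 family genes, up to 3 called genes with the smallest p of each of 7 pathway lists per comparison, a selection of which is printed, and the 3 most alike genes. Counts, marker sums and genes outside that rule (S1pr1, Foxn1, Krt14, Pax5, Cdkn1a, Cdkn2b, Tspan31, Oraov1, Xist and Ddx3y) stand beside the results they touch. The family and the lists were chosen with earlier results of these data known. Replicate numbers 1 and 2 occur in each group but did not pair libraries. Replicates were not repeat deposits, as their counts differed by more than sampling noise in all 4 groups. The BALB DP replicates differed most, with a chi-square per degree of freedom of 16.9 against 1.59 to 4.09 in the other groups. BALB DP replicate 1 had 30.8% of its reads in genes, against 22.6% to 26.3% in the other libraries.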

Additional observations from a re-analysis of the deposited data

How the results depend on the processing

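Ccnd2 in both strains, and Ccnd3 and Cdk6 in BALB whole over BALB DP, kept their direction and call under every alternative. Most changes came from single libraries, since each group has 2. Leaving out each library in turn gave 3 to 5 family genes called in BALB whole over BALB DP (1040 to 3976 of all genes), 1 to 6 in B6 whole over B6 DP (378 to 2201), 0 to 1 in BALB over B6 within whole (214 to 966), 0 to 3 within DP (509 to 3493), 0 to 1 in the interaction (0 to 1311), 5 to 7 in whole over DP over both strains (1786 to 2844) and 1 to 3 in BALB over B6 over both populations (789 to 1446). Where that left 1 library in a group, it was assumed to vary like the others.

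With the strict filter, fewer genes were tested, and 910 genes were called in BALB whole over BALB DP, 512 in B6 whole over B6 DP, 325 in BALB over B6 within whole, with 1 family gene (Cdkn1b), 1128 in whole over DP over both strains and 809 in BALB over B6 over both populations. Without a filter, 839 were called in BALB over B6 within whole and 364 in the interaction. With the 4 libraries compared alone, 1101 were called in BALB whole over BALB DP, 2568 in B6 whole over B6 DP, 1050 in BALB over B6 within whole (1 family gene, Cdkn1b) and 562 within DP (0 family genes). Without BALB DP replicate 1 and BALB whole replicate 1 the counts were 2809 in B6 whole over B6 DP, 1046 in BALB over B6 within whole (3 family genes, Ccnd3, Cdk6 and Cdkn1b) and 139 in the interaction. The DESeq2 Wald test called 748 in B6 whole over B6 DP and 24 in the interaction, and limma-voom 8 in the interaction. The cause of these differences was not tested, beyond the fewer genes or libraries some settings use.

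Values that changed sign were not called. BALB over B6 within whole for Cdkn2d was −0.0049 with the 4 libraries compared, −0.065 without both named libraries, and −0.052 to 0.080 on leaving out single libraries. BALB over B6 within DP for Ccnd1 was −0.37 without both named libraries and −0.36 to 0.061 on leaving out single libraries. The interaction was −0.16 for Cdk6 and 0.0089 for Cdkn1b without both named libraries, and −0.079 to 0.16 for Cdk6 and −0.14 to −0.00022 for Cdkn1b on leaving out single libraries. BALB over B6 over both populations for Ccnd2 was −0.51 in the DESeq2 Wald test, with Ccnd2 near 0 in DP libraries.

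Same-numbered replicates did not deviate together, with correlations of −0.038 to 0.057 between groups, so the numbers give no pairing. The fit with the replicate number as a block called 5, 4, 0, 2 and 0 family genes in BALB whole over BALB DP, B6 whole over B6 DP, BALB over B6 within whole, within DP, and the interaction. The depth of 2632083 counts in the smallest library limits what can be said of Cdkn2a, and of Ccnd2 in DP thymocytes.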
